A study of Mus musculus with 24 samples.

Results

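The genes described here code for subunits of the proteasome, its activators and its dedicated assembly chaperones in mouse lung. They are the rows of the deposited gene count table whose symbol is Psma, Psmb, Psmc, Psmd, Psme, Psmf or Psmg followed by a number, with at least 240 counts summed over the 24 libraries. Of 26253 genes in the table, 48 symbols matched and 46 met the count minimum. The nearest symbols below it were Psma8 with 217 counts and Psmb11 with 5, the subunits named for testis and thymus, and the nearest above it were Psmg4 with 6970 and Psmg2 with 7616. All 46 members also passed the filter on low counts that left 16153 genes for testing.

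The RNA came from whole lung of mice fed either a control diet or one with much docosahexaenoic acid (DHA), an omega-3 fatty acid, before breathing filtered air or ozone. The 4 groups were control diet and air, control diet and ozone, DHA diet and air, and DHA diet and ozone, with 6 libraries each. The study's title names the protection of the lung by DHA against inflammation that ozone causes as its subject, so each diet has its own air group as a baseline. The sources used here do not state strain, sex, age, ozone dose, length of feeding or time of sampling, and no label says whether the libraries of a group came from separate mice. The p-values therefore measure the spread between these libraries.

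The proteasome is the large protease that degrades proteins tagged with ubiquitin. Its core particle is a barrel of alpha and beta rings, with the catalytic sites in the beta subunits Psmb5, Psmb6 and Psmb7. A regulatory particle caps the barrel: its base holds the ATPases that unfold the substrate, and its lid holds the enzyme that removes the ubiquitin chain. In cells exposed to interferon-gamma, and constitutively in many leukocytes, Psmb8, Psmb9 and Psmb10 replace Psmb5, Psmb6 and Psmb7 in newly built core particles. The resulting immunoproteasome is known for making peptides for display on MHC class I. The lung holds epithelial, endothelial, mesenchymal and immune cells, and a whole-lung library sums the RNA of all of them.

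The libraries held between 18053493 and 26225630 counts in genes, and the factors of the TMM scaling ran from 0.955 to 1.03. Levels are given as CPM, read counts scaled by each library's TMM-adjusted total. Within the group of control-diet air, libraries 1 to 3 differed from 4 to 6: ribosomal protein genes summed to between 15010 and 15687 CPM in the first 3 and to between 19669 and 20276 CPM in the others, so results that rest on this group are given below with and without them. Leukocyte, epithelial, endothelial and fibroblast marker genes were present in every group, and no gene of these lists was at 0 throughout a group. Cardiac muscle markers summed to between 970 and 2299 CPM, which are genes of heart and pulmonary vein muscle.

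Per kilobase of transcript, the members covered a wide range of levels. Averaged over all 24 libraries, the median of the 46 genes was 49.7 CPM per kb, from 7.98 for Psmf1, which codes for a proteasome inhibitor, to 173 for the alpha subunit Psma7. The beta ring had the highest class median, 97.2 CPM per kb, and within it Psmb5 was lowest at 35.2 and Psmb6 highest at 165. The alpha ring had a median of 69.1, the base ATPases 74.9 and the lid 49.2 CPM per kb. The 3 immunoproteasome subunits lay in the same range, with 36.8 CPM per kb for Psmb9, 47.2 for Psmb8 and 70.3 for Psmb10. The dedicated chaperones were lower, with a median of 16.1 CPM per kb for those of the core and 12.2 for those of the base. These levels depend on the transcript chosen for each gene.

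Most members varied little between libraries of a group. The mean coefficient of variation (CV) within groups had a median of 5.15% over the members, from 2.89% for Psma1 to 15.9% for Psmg4, the member with the fewest counts. The immunoproteasome subunits spread more, with 9.18% to 12%, than the core particle and the regulatory particle, whose medians were 5.12% and 4.99%. No test was made of this difference.

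After ozone, subunits of the core and regulatory particles were higher by small and similar amounts on both diets. No immunoproteasome subunit was called higher, and the difference between the classes was not tested. On the control diet 26 of the 46 members rose and 1, Psmb9, fell, with an edgeR quasi-likelihood adjusted p under 0.05 (adjusted over all genes tested). Over all genes, 8.93% rose and 7.87% fell. On the DHA diet 29 members rose and none fell, beside 12.7% and 11% of all genes, and DESeq2 and limma-voom also called none lower. Psmd14 rose most on both diets, by 1.25-fold and 1.31-fold.

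The direction was shared by nearly all members. The log2 fold change was above 0 for each of the 43 members other than Psmb8, Psmb9 and Psmb10 on both diets. With the library totals in place of TMM scaling it was above 0 for 41 of the 43 on the control diet and for all 43 on the DHA diet. Of all genes tested, 48.5% were above 0 on the control diet and 47.7% on the DHA diet. The median of the 43 was 0.16 on the log2 scale (1.12-fold) on the control diet and 0.19 (1.14-fold) on the DHA diet, beside -0.01 over all genes in both comparisons. In whole lung, more RNA per cell and more cells of a type that is rich in a transcript cannot be told apart.

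More members had air and ozone libraries fully apart on the DHA diet, a difference in counts that was not tested. All 6 ozone libraries lay above all 6 air libraries for 10 members on the control diet, where 4.50% of all genes did so: Psma1, Psmb4, Psmb6, Psmb7, Psmc1, Psmc2, Psmd1, Psmd2, Psmd13 and Psmd14. With DHA this held for 26 members, beside 5.14% of all genes. The air group spread more on the control diet: the median deviation of the 43 members from their control-air means was -0.00 ± 0.083 on the log2 scale in control-diet air (SD, n = 6) and 0.01 ± 0.028 in DHA-diet air, against 0.16 ± 0.053 and 0.20 ± 0.039 after ozone.

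Of the members, 23 rose on both diets, which is 23 of the 26 on the control diet and 23 of the 29 on the DHA diet. Psma5, Psmb1 and Psme1 rose on the control diet and were not called on the DHA diet. Psma7, Psmd6, Psmd7, Psmd9, Psmd12 and Psme3 rose on the DHA diet and were not called on the control diet. A call on 1 diet alone is no difference between the diets, and the test of that difference is given below. Neither comparison called Psma3, Psmb8, Psmb10, Psmc6, Psmd4, Psmd5, Psmd10, Psme2, Psme4, Psmf1, Psmg2, Psmg3 or Psmg4.

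**Figure D1:**
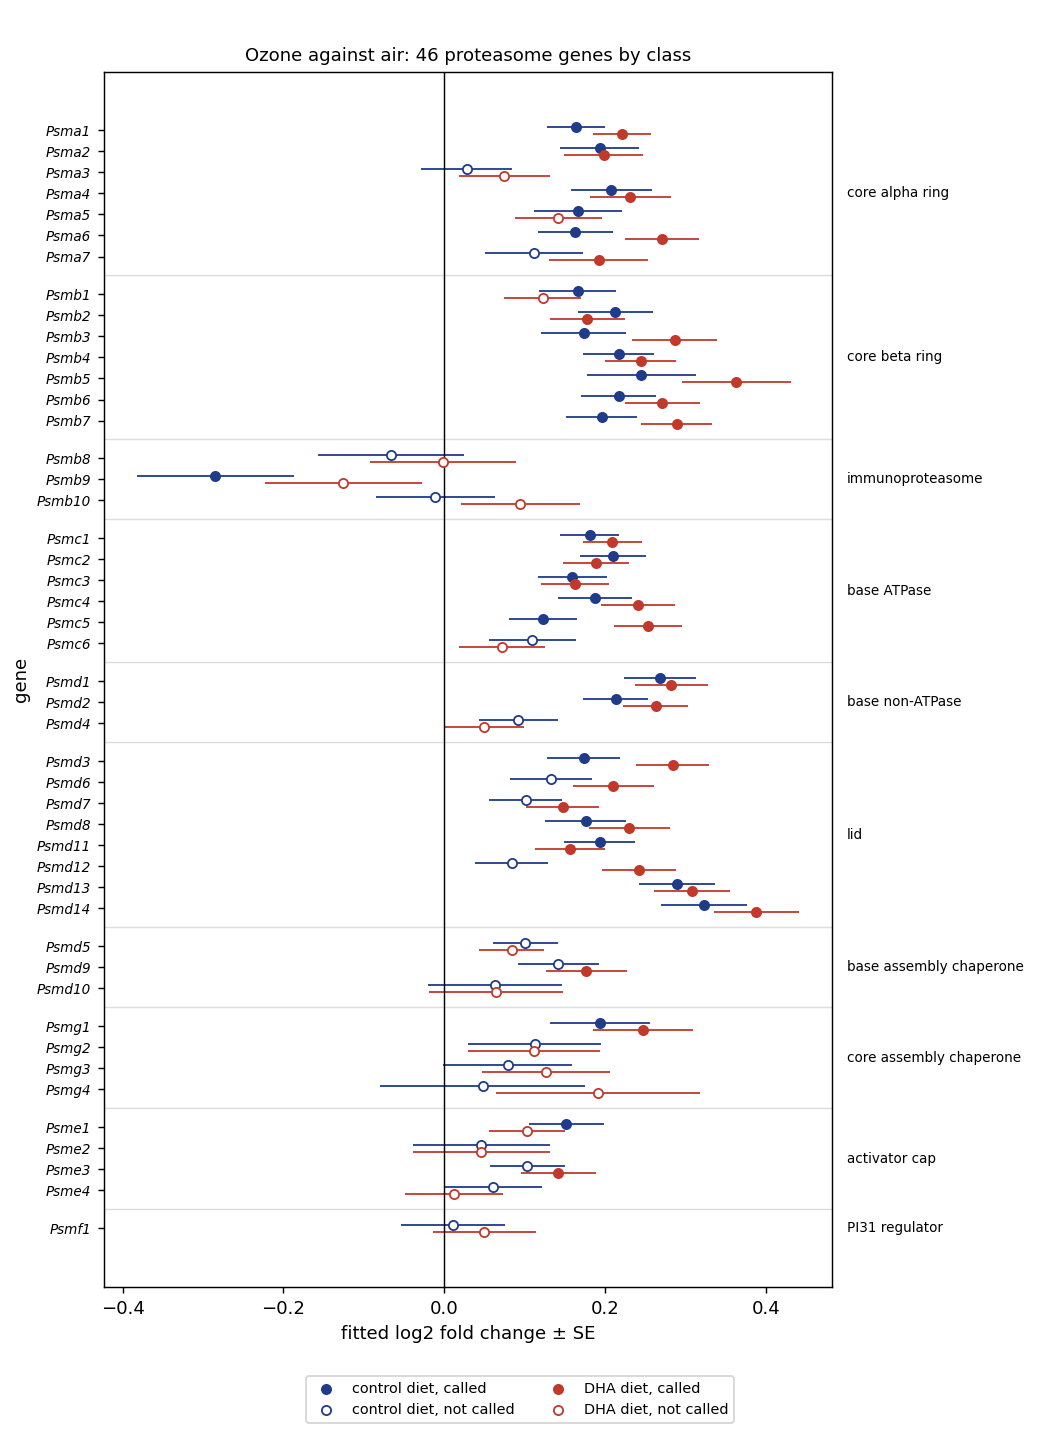
Log2 fold change of ozone against filtered air for each of the 46 members, with its standard error, on the control diet and on the DHA diet. Filled points passed an adjusted p of 0.05. Apart from Psmb8, Psmb9 and Psmb10, all points lie to the right of 0, and Psmd14 lies farthest out on both diets.

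All 3 constitutive catalytic subunits of the beta ring rose after ozone on both diets. Psmb5 carries the chymotrypsin-like site, Psmb6 the caspase-like site and Psmb7 the trypsin-like site. Their genes lie apart in the genome: in the deposited mm39 coordinates, whose counting convention is not given, Psmb5 spans chr14:54851577-54855453, Psmb6 chr11:70416183-70418685 and Psmb7 chr2:38478058-38533919.

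The start regions of Psmb5, Psmb6 and Psmb9 are shown, the catalytic genes whose window holds 1 of the 3 motifs searched. Psmb8 and Psmb10 held none of them, and Psmb7 had no entry. Each line holds the 150 bases before the annotated start, 5′ to 3′ on the gene's strand, from RefSeq on GRCm38.p6. Psmb5 is on the minus strand (chr14:54617996-54618145), Psmb6 on the plus strand (chr11:70525207-70525356) and Psmb9 on the minus strand (chr17:34187331-34187480). Capitals mark TGACNNNGC, the core of the antioxidant response element, in Psmb5 (first base 47 before the start) and Psmb6 (9 before), and the CCAAT box read on the opposite strand in Psmb9 (8 before).
Psmb5: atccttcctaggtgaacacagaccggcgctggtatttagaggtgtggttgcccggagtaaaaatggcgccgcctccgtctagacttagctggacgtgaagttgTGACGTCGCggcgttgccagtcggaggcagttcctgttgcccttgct
Psmb6: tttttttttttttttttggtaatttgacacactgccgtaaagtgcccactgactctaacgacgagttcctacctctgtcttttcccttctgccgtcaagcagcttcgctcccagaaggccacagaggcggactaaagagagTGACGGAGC
Psmb9: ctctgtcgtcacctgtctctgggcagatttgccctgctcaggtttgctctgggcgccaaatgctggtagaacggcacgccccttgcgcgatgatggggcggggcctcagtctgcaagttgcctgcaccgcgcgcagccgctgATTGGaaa

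The share of promoters with each motif was counted over the members and over all genes, with no test. In windows from 250 bases before to 50 after the start, read on both strands, 39 members had a RefSeq entry. TGACNNNGC stood in 6 of them (15.4%): Psmb5, Psmb6, Psmc6, Psmd9, Psmd12 and Psme4. The share was 14% among the promoters of all 27025 genes in the table and 16.7% among those of the genes tested. The shortened interferon-stimulated response element GAAANNGAA stood in 7 of the 39 (17.9%) in 9.76% of all promoters and in 8.85% of those of the genes tested, and in none of the 3 immunoproteasome genes. CCAAT stood in 13 of the 39 (33.3%), beside 41.1% of all promoters and 41.7% of those of the genes tested. The first 4 letters of TGACNNNGC are also those of the AP-1 and CRE motifs, so a match can hold these too. A match is a run of letters and says nothing of binding.

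Psmb5 was measured at between 23.8 and 34.1 CPM in control-diet air (median 28.2) and between 31.1 and 38.6 CPM after ozone (median 33.9). In DHA-diet air it ranged from 25.9 to 31.0 CPM (median 28.1), and after ozone from 34.2 to 39.1 CPM (median 35.8). The groups overlapped on the control diet and did not on the DHA diet. Psmb5 rose by 1.19-fold (log2 0.24 ± 0.068, SE, edgeR adjusted p = 0.0137) on the control diet and by 1.29-fold (0.36 ± 0.068, adjusted p = 0.000363) on the DHA diet.

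Psmb6 lay between 106 and 131 CPM in control-diet air (median 120.4) and between 132 and 151 CPM after ozone (median 138). Libraries of the DHA diet lay between 116 and 128 CPM in air (median 120.4) and between 141 and 154 CPM after ozone (median 145). On neither diet did an air library reach the lowest ozone library. Psmb6 rose by 1.16-fold (edgeR adjusted p = 0.00218) and by 1.21-fold (adjusted p = 0.000162).

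Psmb7 ranged from 96.9 to 116 CPM in control-diet air (median 105) and from 116 to 129 CPM after ozone (median 119). Libraries of the DHA diet ranged from 99.5 to 108 CPM in air (median 102) and from 114 to 133 CPM after ozone (median 126). Here too the groups did not overlap on either diet. On the control diet they nearly met, at 115.798 CPM in the highest air library and 115.824 CPM in the lowest ozone library. Psmb7 rose by 1.15-fold (edgeR adjusted p = 0.00326) and by 1.22-fold (adjusted p = 4.68e-05).

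The non-catalytic beta subunits Psmb1, Psmb2, Psmb3 and Psmb4 complete the ring. Psmb4 rose from 165 ± 11.4 to 192 ± 8.73 CPM (SD, n = 6 per group; 1.16-fold, edgeR adjusted p = 0.00143) on the control diet and from 167 ± 7.58 to 198 ± 6.11 CPM (1.18-fold, adjusted p = 0.000279) on the DHA diet. Psmb3 rose by 1.13-fold and 1.22-fold, and Psmb2 by 1.16-fold and 1.13-fold. Psmb1 rose by 1.12-fold on the control diet (edgeR adjusted p = 0.0171) and had a log2 fold change of 0.12 ± 0.048 (SE) on the DHA diet, with an adjusted p of 0.0622. All 7 constitutive beta subunits were thus called on the control diet and 6 of 7 on the DHA diet.

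The alpha ring forms the gate through which substrates enter the barrel. On each diet 5 of its 7 measured subunits rose. Psma4 rose from 74.7 ± 5.67 to 86.3 ± 5.79 CPM (SD, n = 6 per group; 1.15-fold, edgeR adjusted p = 0.00547) on the control diet and from 74.1 ± 2.83 to 87.1 ± 3.78 CPM (1.17-fold, adjusted p = 0.00146) on the DHA diet. Psma6 rose by 1.12-fold on the control diet and by 1.21-fold, from 133 ± 4.49 to 159.9 ± 10.1 CPM, on the DHA diet. Psma1 had the smallest mean CV of all members: in DHA-diet air it lay between 100.7 and 107 CPM and after ozone between 119 and 124 CPM. Psma2 rose by 1.14-fold and 1.15-fold. Psma5 rose on the control diet (1.12-fold, edgeR adjusted p = 0.0364), with 1.10-fold and adjusted p = 0.0576 on the DHA diet, and Psma7 rose on the DHA diet (1.14-fold, adjusted p = 0.0237), with 1.08-fold and adjusted p = 0.226 on the control diet. Psma3 had 1.02-fold and 1.05-fold and was not called.

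The base of the regulatory particle contains a ring of 6 ATPases, of which 5 rose on each diet. Psmc2 rose from 84.5 ± 3.96 to 97.7 ± 4.93 CPM on the control diet (SD, n = 6 per group; 1.16-fold, edgeR adjusted p = 0.000962). With DHA it rose from 86.1 ± 1.00 to 98.1 ± 4.96 CPM (1.14-fold, adjusted p = 0.00147). Psmc4 rose by 1.14-fold and 1.18-fold, Psmc1 by 1.13-fold and 1.16-fold, and Psmc5 by 1.09-fold and 1.19-fold. The ATPase not called was Psmc6, with 1.08-fold and 1.05-fold. The groups of Psmc2 did not overlap on either diet.

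Psmd1 and Psmd2 are the large scaffolds of the base, and Psmd4 is a receptor for ubiquitin chains. Psmd1 lay between 125 and 142 CPM in control-diet air (median 138) and between 152 and 182 CPM after ozone (median 162). The DHA-diet ranges were 124 to 146 CPM (median 135) and 157 to 172 CPM (median 163). No library of an air group reached the ozone group of its diet. Psmd1 rose by 1.20-fold (edgeR adjusted p = 0.000230) and 1.22-fold (adjusted p = 7.49e-05), and Psmd2 by 1.16-fold and 1.20-fold. Psmd4 was not called, with 1.07-fold (adjusted p = 0.207) and 1.03-fold (adjusted p = 0.502).

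The lid gene Psmd14 had the largest rise on both diets, followed by the lid gene Psmd13 on the control diet and by Psmb5 on the DHA diet. Psmd14, the metalloprotease that cuts the ubiquitin chain off a substrate, is at chr2:61542038-61630721 in the deposited mm39 coordinates. It lay between 39.6 and 46.6 CPM in control-diet air (median 42.2) and between 50.9 and 55.6 CPM after ozone (median 55.0). With DHA it lay between 43.8 and 48.4 CPM in air (median 46.2) and between 52.7 and 68.6 CPM after ozone (median 59.2). The air and ozone groups were apart on both diets, and the DHA-diet ozone group had the widest range. The log2 fold change was 0.32 ± 0.053 (SE, edgeR adjusted p = 0.000193) on the control diet and 0.39 ± 0.053 (adjusted p = 1.38e-05) on the DHA diet.

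Psmd13, a structural subunit of the lid, rose from 114 ± 9.86 to 139.9 ± 7.65 CPM on the control diet (SD, n = 6 per group; 1.22-fold, edgeR adjusted p = 0.000173). The DHA-diet rise was from 116 ± 3.04 to 144 ± 4.91 CPM (1.24-fold, adjusted p = 4.84e-05). Psmd11, whose product is known to limit assembly of the complete proteasome in some cells, rose by 1.14-fold and 1.11-fold. Psmd3 rose by 1.13-fold (edgeR adjusted p = 0.00924) and 1.22-fold (adjusted p = 7.10e-05). In all, 5 of the 8 lid genes rose on the control diet and all 8 on the DHA diet. Psmd12 had 1.06-fold on the control diet (edgeR adjusted p = 0.22) and rose by 1.18-fold on the DHA diet (adjusted p = 0.000415).

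Of the 7 dedicated assembly chaperones, 1 rose on the control diet and 2 rose on the DHA diet. Psmd5, Psmd9 and Psmd10 help to build the base and leave the finished particle. Of these, Psmd9 rose on the DHA diet by 1.13-fold (edgeR adjusted p = 0.0119), with 1.10-fold on the control diet (adjusted p = 0.0526). Of the core chaperones Psmg1 to Psmg4, which guide the alpha ring, Psmg1 rose from 14.5 ± 0.981 to 16.6 ± 1.07 CPM (SD, n = 6 per group; 1.14-fold, edgeR adjusted p = 0.0335) on the control diet. Its DHA-diet rise was 1.19-fold (adjusted p = 0.00467). The other 3 had between 1.03-fold and 1.14-fold and were not called. Psmf1, with 1.01-fold and 1.04-fold, was not called either. The group means of the Psmg genes ran from 12.3 to 17.9 CPM, the lowest of any class.

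Among the activators, which open the barrel without ATP, Psme1 and Psme2 form a cap that interferon-gamma is known to induce, and Psme3 and Psme4 code for nuclear activators. Psme1 lay between 157 and 193 CPM in control-diet air (median 174) and between 186 and 204 CPM after ozone (median 193). The DHA-diet range was 165 to 177 CPM in air (median 172) and 164 to 189 CPM after ozone (median 186). The groups overlapped on both diets. Psme1 rose on the control diet (1.11-fold, edgeR adjusted p = 0.0265) and had 1.07-fold with adjusted p = 0.115 on the DHA diet.

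Psme2 was measured at 29.5 ± 4.93 and 30.4 ± 2.99 CPM in air and ozone on the control diet and at 28.9 ± 2.19 and 29.9 ± 1.45 CPM on the DHA diet (SD, n = 6 per group), and was not called. Its value is uncertain, because the table also holds the near-identical retrocopy Psme2b at 97.4 ± 11.1, 106 ± 6.95, 92.0 ± 3.58 and 110.1 ± 8.10 CPM in the same order, and reads may have been split between them. Psme2b, which is not among the members, rose on the DHA diet (1.20-fold, edgeR adjusted p = 0.00313, groups apart) and was not called on the control diet (1.09-fold, adjusted p = 0.160). With the counts of both genes summed, an alternative chosen after seeing the data, the sum rose on the DHA diet by 0.22 on the log2 scale (adjusted p = 0.0112) and had 0.10 on the control diet (adjusted p = 0.272). In that fit Psma5 was also called on the DHA diet (adjusted p = 0.0491), and Psmc5 was not called on the control diet (adjusted p = 0.0574). Psme3 rose on the DHA diet from 74.0 ± 3.59 to 81.6 ± 5.92 CPM (1.10-fold, edgeR adjusted p = 0.0267), with 1.07-fold on the control diet (adjusted p = 0.130). Psme4 was at 68.2 ± 7.40, 71.2 ± 2.54, 68.1 ± 2.24 and 68.7 ± 6.46 CPM and was not called.

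None of the 3 immunoproteasome subunits was called higher on either diet. A subunit without a call may still have risen, since these 3 spread more between libraries than the core. In the deposited mm39 coordinates Psmb9 (chr17:34401073-34406305) and Psmb8 (chr17:34417169-34420429) flank Tap1, a subunit of the peptide transporter of MHC class I loading, which begins 225 bases after Psmb9 and ends 969 bases before Psmb8. Psmb10 lies elsewhere, at chr8:106662360-106665025.

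Psmb9 ranged from 42.6 to 71.5 CPM in control-diet air (median 59.8) and from 44.3 to 54.0 CPM after ozone (median 46.6). With DHA it ranged from 42.6 to 55.2 CPM in air (median 47.3) and from 33.3 to 52.0 CPM after ozone (median 44.8). The groups overlapped on both diets, and control-diet air held the highest libraries. Psmb9 fell by 0.28 ± 0.097 (SE) on the log2 scale on the control diet (0.821-fold, edgeR adjusted p = 0.0440), and this call did not hold in most fits with 1 library left out. It was kept in 3 of 12 fits, those without control-diet air library 2 or 3 or without control-diet ozone library 2, and adjusted p ran from 0.00689 to 0.113. With DHA, Psmb9 had 0.917-fold (adjusted p = 0.380).

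Psmb8 ranged from 65.6 to 102 CPM in control-diet air (median 82.9) and from 73.0 to 85.5 CPM after ozone (median 79.2). The DHA-diet libraries ranged from 61.5 to 89.4 CPM in air (median 70.7) and from 61.2 to 82.8 CPM after ozone (median 73.7). All 4 groups overlapped. The log2 fold change was -0.07 ± 0.091 (SE, edgeR adjusted p = 0.665) and -0.00 (adjusted p = 0.993).

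Psmb10 ranged from 82.2 to 109 CPM in control-diet air (median 98.5) and from 86.7 to 108 CPM after ozone (median 94.4). On the DHA diet it ranged from 77.5 to 91.6 CPM in air (median 85.9) and from 74.4 to 99.6 CPM after ozone (median 95.3). Again all groups overlapped. The log2 fold change was -0.01 ± 0.074 (SE, edgeR adjusted p = 0.941) on the control diet and 0.09 ± 0.074 (adjusted p = 0.383) on the DHA diet.

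**Figure D2:**
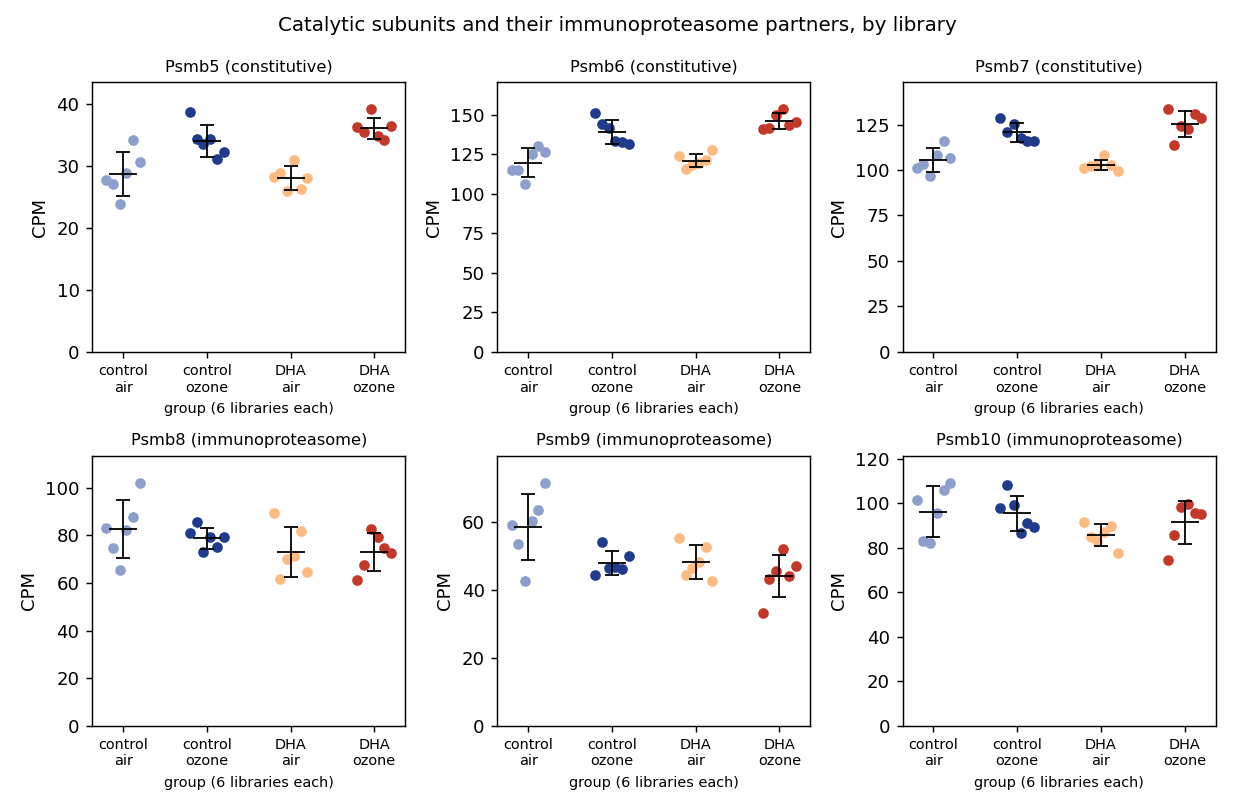
CPM in each of the 24 libraries for the constitutive catalytic subunits Psmb5, Psmb6 and Psmb7 (upper row) and their immunoproteasome counterparts Psmb8, Psmb9 and Psmb10 (lower row), by group, with the mean and SD of 6 libraries. The ozone means lie above the air means in the upper row, while in the lower row all groups overlap.

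The share of the immunoproteasome subunits among the 6 catalytic transcripts, a ratio within each library that does not depend on scaling, is given as a description. It was 48.2 ± 2.30% in control-diet air (SD, n = 6) and 43.05 ± 1.42% after ozone. For the DHA diet it was 45.0 ± 2.35% in air and 40.3 ± 2.65% after ozone. The highest control-diet ozone library, at 45.3%, lay under the lowest control-diet air library, at 45.7%, whereas the DHA-diet groups overlapped. Without control-diet air libraries 1 to 3 the air value was 49.0 ± 2.34%, and without 4 to 6 it was 47.3 ± 2.35% (n = 3 each). The lowest library of all was DHA-diet ozone 1, at 35.2%. Without DHA-diet ozone libraries 1 and 2 that group had 41.6 ± 0.845% (n = 4).

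Each pair contributed to the share. Per kilobase, the ratio of Psmb8 to Psmb5 went from 1.59 ± 0.146 in control-diet air to 1.29 ± 0.0874 after ozone (SD, n = 6), and from 1.45 ± 0.25 to 1.12 ± 0.118 on the DHA diet. The ratio of Psmb9 to Psmb6 was 0.287 ± 0.0319 and 0.204 ± 0.0188 on the control diet, and 0.235 ± 0.0238 and 0.178 ± 0.0209 on the DHA diet. For Psmb10 over Psmb7 the values were 0.807 ± 0.0757 and 0.699 ± 0.0492, and 0.737 ± 0.0417 and 0.647 ± 0.0804. Summed pan-leukocyte markers lay between 640 and 835 CPM in control-diet air, 741 and 858 after ozone, 647 and 838 in DHA-diet air, and 677 and 803 after ozone. Neutrophil markers, of which all 6 rose on the DHA diet and 1 of 6 on the control diet, summed to between 67.3 and 325.7 CPM in DHA-diet ozone and 41.2 and 74.9 CPM in DHA-diet air. On the control diet their sums lay between 51.0 and 154.5 CPM after ozone and between 43.7 and 182.6 CPM in air. None of the 6 markers was called for a difference between the diets in the response to ozone. Their part in the share was not tested.

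**Figure D3:**
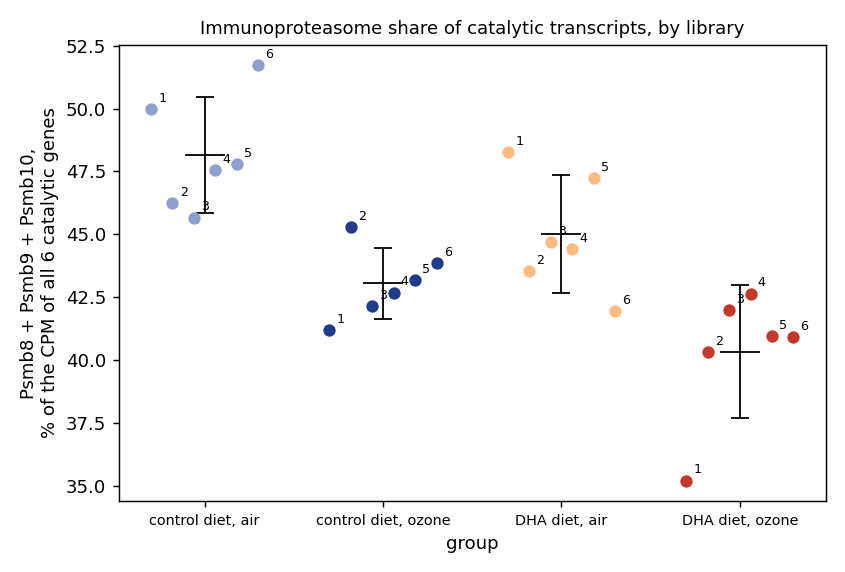
Share of Psmb8, Psmb9 and Psmb10 in the summed CPM of the 6 catalytic genes (percent, axis not from 0) in each library, numbered by replicate, with the mean and SD of each group. Control-diet air and ozone do not overlap (lowest 45.7%, highest 45.3%), and DHA-diet ozone library 1 is lowest at 35.2%.

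Summed over classes, the core particle (14 constitutive genes) went from 1302 ± 99.8 to 1473 ± 55.8 CPM on the control diet and from 1309 ± 25.3 to 1529 ± 38.9 CPM on the DHA diet (SD, n = 6 per group). The regulatory particle (17 genes) went from 1720 ± 61.6 to 1949 ± 56.2 CPM and from 1725 ± 35.2 to 2007 ± 62.0 CPM. The immunoproteasome subunits were at 237 ± 32.8 and 222 ± 13.1 CPM on the control diet and at 207 ± 19.9 and 209 ± 22.9 CPM on the DHA diet. The differences of the first 2 sums exceeded the SDs on both diets, and those of the immunoproteasome sum were within the larger SD. The cycling-cell markers also rose: all 6 were called on both diets, with sums of 47.8 to 65.1 CPM in air and 96.8 to 145 CPM after ozone on the control diet, and of 51.1 to 67.4 CPM and 74.1 to 253 CPM on the DHA diet. Of the alveolar macrophage markers, 2 of 6 rose on the control diet and 3 of 6 on the DHA diet. Over all genes, 8.93% rose on the control diet and 12.7% on the DHA diet. The macrophage sums ran from 286 to 355 CPM in air and from 417 to 525 CPM after ozone on the control diet. On the DHA diet they ran from 313 to 369 CPM in air and from 423 to 594 CPM after ozone. Of the alveolar type 2 markers, 3 of 5 rose on the control diet (Sftpa1, Sftpb and Lamp3) and 2 of 5 on the DHA diet (Sftpb and Sftpa1). Their sums ran from 22345 to 33664 CPM in air and from 31113 to 32547 CPM after ozone on the control diet, and from 31655 to 34891 and from 33167 to 36477 CPM on the DHA diet. Of the alveolar type 1 markers, Hopx and Aqp5 rose on both diets, 2 of 4. Their sums ran from 3395 to 3829 CPM in air and 3795 to 4246 CPM after ozone on the control diet, and from 3159 to 4069.7 and 3696 to 4232 CPM on the DHA diet. Their part in the rise of the proteasome genes was not tested.

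The control-diet calls rested partly on the air libraries that stood apart. In libraries 1 to 3 of that group the median deviation of the 43 members from the group mean lay between -0.12 and -0.04 on the log2 scale, and in libraries 4 to 6 between 0.03 and 0.08. Without libraries 1 to 3, a comparison chosen after seeing the data, 8 members rose after ozone in place of 26, beside 5.19% of all genes: Psmc1, Psmc2, Psmd1, Psmd2, Psmd9, Psmd11, Psmd13 and Psmd14. The median of the 43 was then 0.09 on the log2 scale, with 37 above 0. Psmd14 had 0.26 (edgeR adjusted p = 0.0112) and Psmd1 0.28 (adjusted p = 0.00216), while Psmb5, Psmb6 and Psmb7 each had 0.12, with adjusted p of 0.312, 0.104 and 0.113.

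The lower call of Psmb9 moved the other way. Without libraries 1 to 3 it fell by 0.45 on the log2 scale (edgeR adjusted p = 0.00548). Without libraries 4 to 6 it had -0.12 (edgeR adjusted p = 0.478), and 34 members rose, with a median of 0.24 over the 43. Over all genes in that fit, 1553 of 16453 rose. The ribosomal protein sums split the same libraries, and their part in these values was not tested. Leaving out 1 library at a time, between 20 and 27 members rose on the control diet, and 19 of the 27 calls were kept in all 12 fits. Psmb1 (edgeR adjusted p = 0.0535) and Psmd8 (adjusted p = 0.0549) lost their calls without control-diet air library 1 and in no other such fit. Psmb3 kept its call in 7 of the 12 fits, Psmg1 in 6, Psme1 in 5, and Psma5, Psmb9 and Psmc5 in 3 each.

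The comparison on the DHA diet has its own air group. Leaving out 1 library at a time, between 27 and 31 members rose, and 27 of the 29 calls were kept in all 12 fits. Psma7 lost its call without DHA-diet air library 3 or ozone library 6 (highest edgeR adjusted p = 0.0670), and Psme3 kept its call in 6 of 12 fits. Without DHA-diet ozone libraries 1 and 2, chosen after seeing the data, 30 members rose, with Psmb1 and Psme1 added and Psmd7 lost (edgeR adjusted p = 0.0556). Over all genes in that fit, 1937 of 16333 rose.

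**Figure D4:**
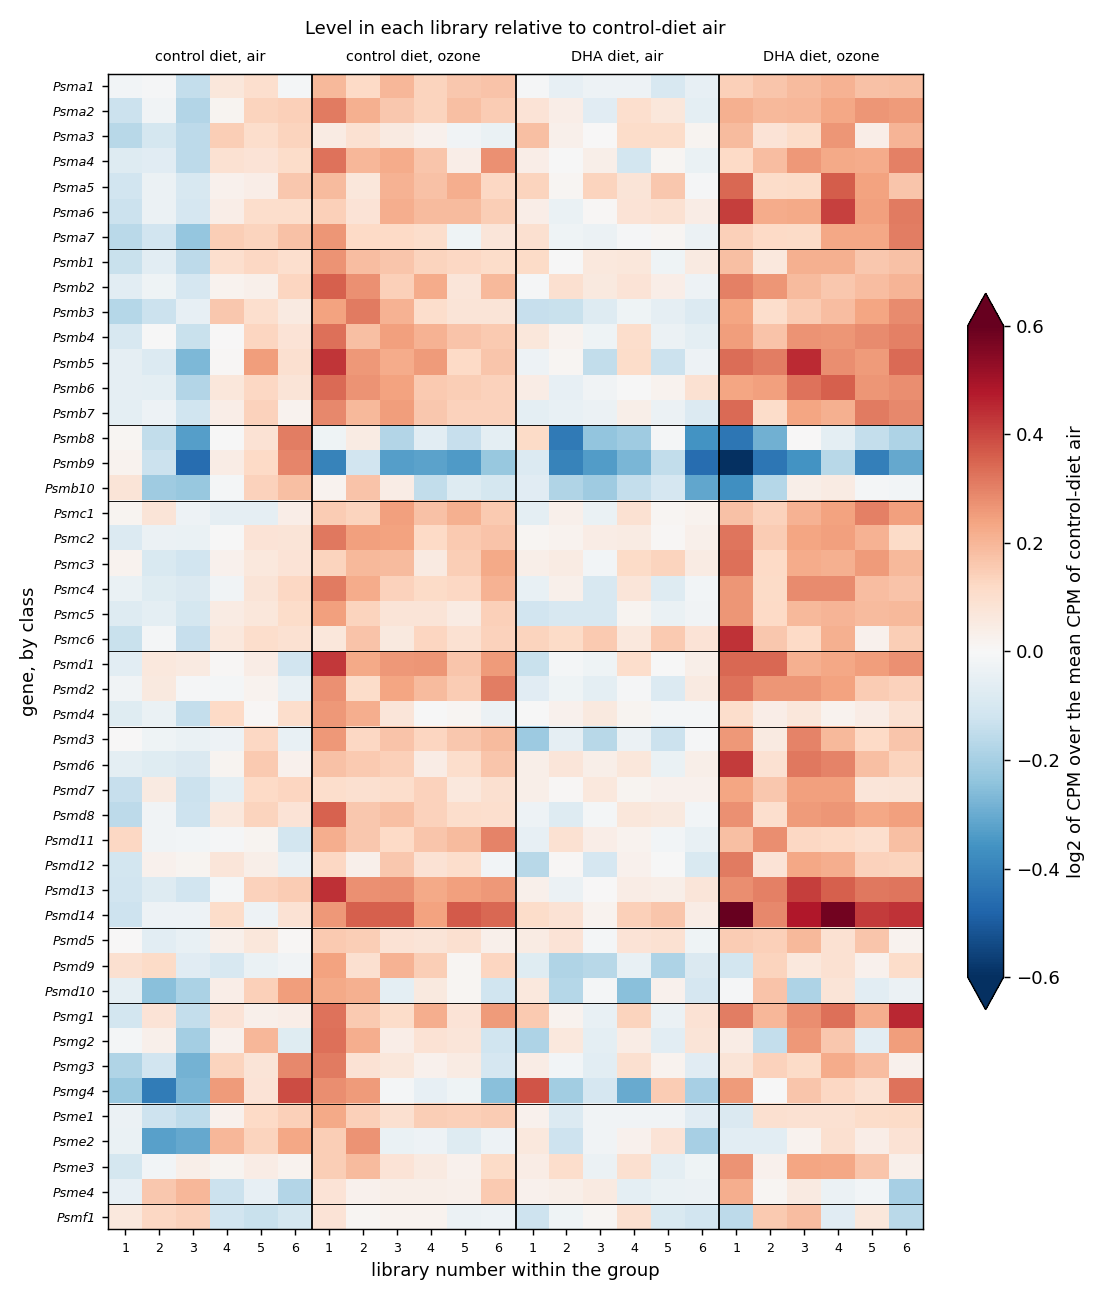
Log2 of each member's CPM over its mean in control-diet air, for 46 genes (rows, by class) and 24 libraries (columns, by group), on a colour scale from -0.6 to 0.6, which 2 of 1104 cells exceed. The ozone columns are mostly above 0 outside the rows of Psmb8, Psmb9 and Psmb10, and control-diet air libraries 1 to 3 are mostly below libraries 4 to 6.

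Diet alone changed no member past the threshold. In filtered air, DHA against control diet gave 0 called members (edgeR; 5 at an unadjusted p under 0.05; 0 by DESeq2 and by limma-voom), beside 1.15% of all genes called and 17.3% at the unadjusted level. The 3 immunoproteasome genes had the largest negative values. Psmb9 had -0.28 on the log2 scale (95% interval -0.47 to -0.09, edgeR adjusted p = 0.135). Psmb8 had -0.18 (-0.35 to 0.00, adjusted p = 0.323), and Psmb10 had -0.17 (-0.31 to -0.02, adjusted p = 0.240). The median over the 43 other members was 0.00. The control-diet air group here holds the libraries that stood apart, and these 3 values moved with them. Without libraries 1 to 3 of that group Psmb9 had -0.44 (edgeR adjusted p = 0.104), Psmb8 -0.32 (adjusted p = 0.177) and Psmb10 -0.28 (adjusted p = 0.157). Without libraries 4 to 6 they had -0.11 (adjusted p = 0.587), -0.03 (adjusted p = 0.882) and -0.06 (adjusted p = 0.717). In that same comparison without libraries 4 to 6, 3 members rose on the DHA diet: Psma3 by 0.21 on the log2 scale (edgeR adjusted p = 0.0198), Psmb1 by 0.16 (adjusted p = 0.0368) and Psmc6 by 0.20 (adjusted p = 0.0394). Over all genes in that fit, 655 of 16453 rose and 896 fell. Without libraries 1 to 3 no member was called, and none of all genes tested.

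After ozone, DHA against control diet also gave 0 called members (edgeR; 5 at an unadjusted p under 0.05; 0 by DESeq2 and by limma-voom), beside 0.0% of all genes called and 14% at the unadjusted level. Psma6 had 0.15 on the log2 scale (95% interval 0.06 to 0.24, edgeR adjusted p = 0.183), and it was the 1 member whose groups did not overlap (0.334% of all genes were apart in this direction). Its control-diet ozone libraries lay between 137 and 150.1 CPM and its DHA-diet ozone libraries between 150.6 and 172 CPM. Psmd14 had 0.16 (0.06 to 0.26, adjusted p = 0.200). These comparisons share their groups with those of ozone against air and are not independent of them.

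The response to ozone did not differ between the diets past the threshold for any member. The interaction, the ozone difference on the DHA diet minus that on the control diet, gave 0 called members (edgeR; 2 at an unadjusted p under 0.05; 0 by limma-voom; 0 by DESeq2, which gave an adjusted p for 41 of the 46), beside 0.0% of all genes called and 6.12% at the unadjusted level. The members past the unadjusted level were the lid gene Psmd12, with 0.16 on the log2 scale (adjusted p = 0.731), and the ATPase Psmc5, with 0.13 (adjusted p = 0.794). Psmb9 had 0.16 (95% interval -0.11 to 0.43, adjusted p = 0.917). An interval of this width does not show that the diets act alike.

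**Figure D5:**
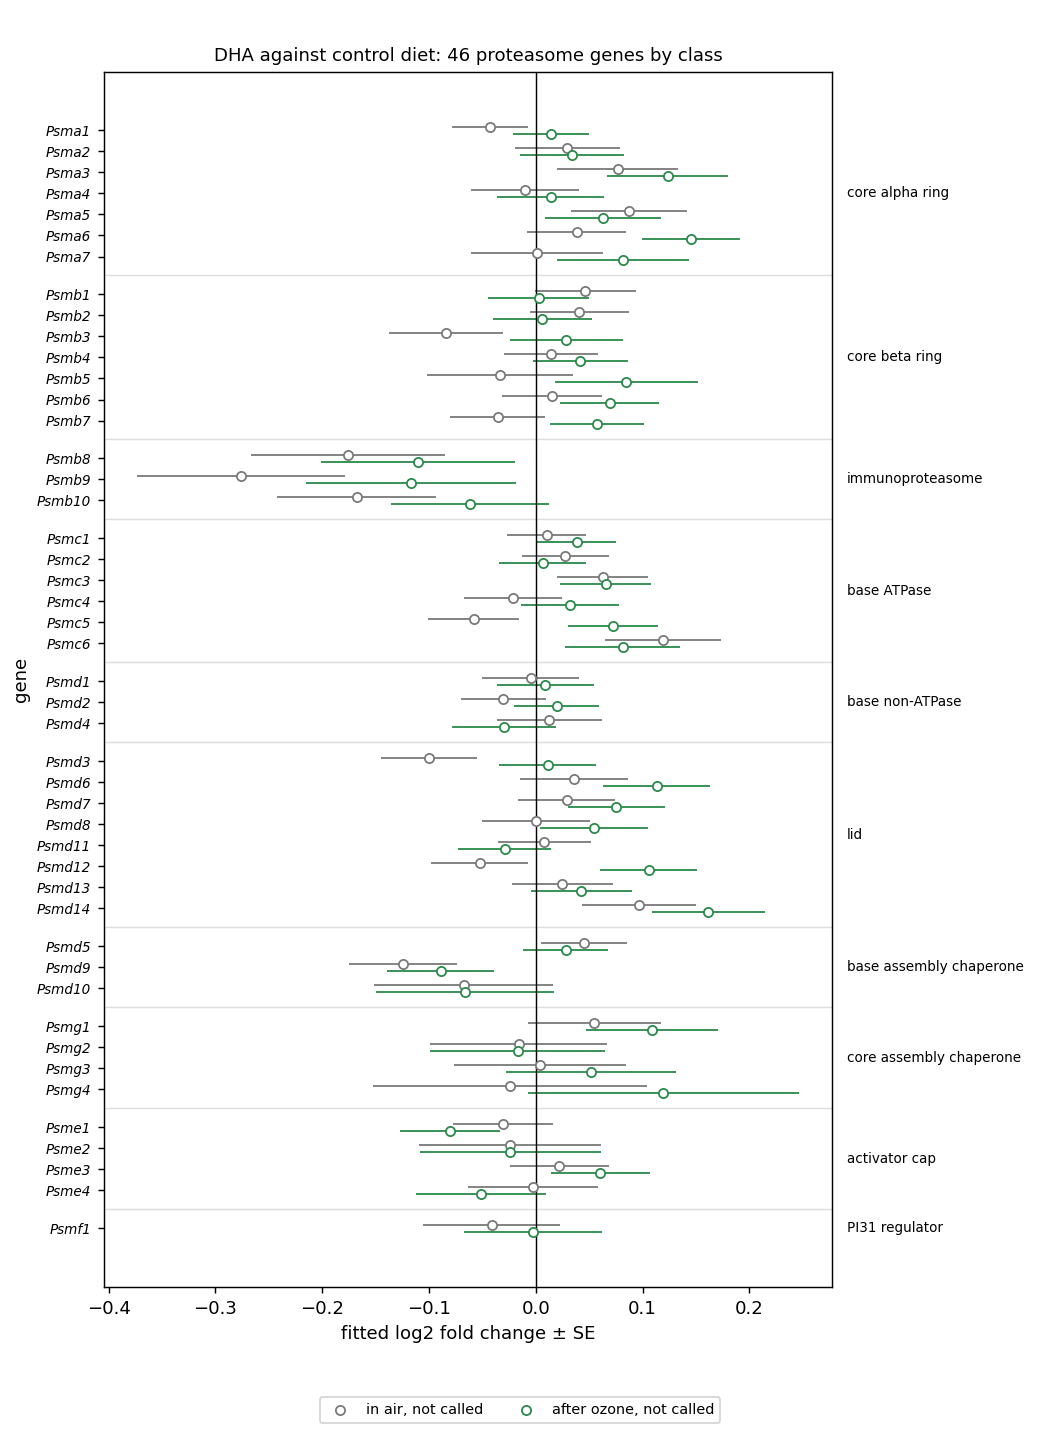
Log2 fold change of DHA against control diet for each of the 46 members, with its standard error, in filtered air and after ozone. All points are open, since none passed an adjusted p of 0.05. Psmb8, Psmb9 and Psmb10 lie lowest in air, and Psmd14 and Psma6 lie among the highest after ozone.

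Genes that work with the proteasome were read from lists chosen for their known roles. Beside them, 8.93% of all genes rose and 7.87% fell on the control diet, and 12.7% rose and 11% fell on the DHA diet. Of 11 tested assembly factors and companions, 3 rose on each diet, the same 3: Pomp, the core maturation factor (1.14-fold, edgeR adjusted p = 0.00906, and 1.15-fold), the deubiquitinase Uchl5 (1.20-fold and 1.27-fold) and Txnl1 (1.11-fold and 1.17-fold). The list's median was 0.06 and 0.08 on the log2 scale. Upstream of the proteasome, Uba1, the main ubiquitin-activating enzyme, rose by 1.12-fold and 1.18-fold and was the 1 of 6 called in its list. Of 10 shuttle and segregase genes, 3 rose on the control diet and 6 on the DHA diet. The segregase Vcp, which pulls tagged proteins out of complexes, rose by 1.19-fold (edgeR adjusted p = 0.000358) and 1.24-fold (adjusted p = 1.93e-05). On the control diet the other genes called were Nploc4 and Rad23b, and on the DHA diet Nsfl1c and Faf1 were among them. Without control-diet air libraries 1 to 3, Vcp (0.28 on the log2 scale, edgeR adjusted p = 0.00173) and Uba1 (0.20, adjusted p = 0.00837) still rose on the control diet. In that fit Pomp (0.07, adjusted p = 0.360), Uchl5 (0.23, adjusted p = 0.0921) and Txnl1 (0.11, adjusted p = 0.193) were not called. Nploc4 and Rad23b were not called in that fit either. Without libraries 4 to 6, Uba1 and Rad23b were not called, while Vcp, Nploc4, Pomp, Uchl5 and Txnl1 rose.

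In the list of 11 genes that control proteasome gene transcription, 2 rose on the control diet and 1 fell on the DHA diet. Over all genes, 8.93% rose on the control diet and 11% fell on the DHA diet. Nfe2l1, the factor of the recovery response to proteasome inhibition, had a log2 fold change of 0.01 and 0.02 (edgeR adjusted p = 0.887 and 0.825). Nfe2l2 (NRF2), which binds the antioxidant response element, rose by 1.17-fold on the control diet (adjusted p = 0.0137) and had 1.06-fold on the DHA diet (adjusted p = 0.335). Its partner Maff rose by 1.19-fold on the control diet (adjusted p = 0.0397), and Mafg fell to 0.867-fold on the DHA diet (adjusted p = 0.0419). The list's median was 0.05 and 0.02 on the log2 scale. Without control-diet air libraries 1 to 3, Nfe2l2 had 0.17 (edgeR adjusted p = 0.172) and Maff 0.13 (adjusted p = 0.401), and neither was called. Without libraries 4 to 6 both rose.

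Genes of MHC class I presentation moved in both directions. In the MHC class I list of 12 genes, 3 rose on both diets, the endoplasmic reticulum chaperones Calr (1.30-fold and 1.43-fold), Pdia3 (1.23-fold and 1.22-fold) and Canx (1.11-fold and 1.10-fold). These chaperones also fold many other proteins. Canx was not called on the control diet without air libraries 4 to 6, and it rose there without 1 to 3. On the DHA diet it was not called without ozone libraries 1 and 2. Calr and Pdia3 rose in each of these fits. In the same list Nlrc5, the transactivator of MHC class I genes, fell to 0.654-fold (edgeR adjusted p = 0.00220) and 0.663-fold (adjusted p = 0.00205). Tap1, the neighbour of Psmb9 and Psmb8, fell to 0.815-fold on the control diet (adjusted p = 0.0488) and had 0.826-fold on the DHA diet (adjusted p = 0.0533). The call of Tap1 was lost without control-diet air libraries 1 to 3 (adjusted p = 0.0590) and without 4 to 6 (adjusted p = 0.140), whereas Nlrc5 fell in both cases (adjusted p = 0.00546 and 0.0183). The list's median was -0.03 and -0.01 on the log2 scale.

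In the interferon-gamma list, 12 of 13 genes were tested, none rose and 3 fell on each diet. The GTPase gene Gbp4 fell to 0.459-fold (edgeR adjusted p = 0.00105) and 0.504-fold (adjusted p = 0.00217), and the transcription factor Irf1 fell to 0.856-fold and 0.835-fold. Ciita, the transactivator of MHC class II genes, fell to 0.737-fold on the DHA diet (edgeR adjusted p = 0.0103). The list's median was -0.11 and -0.14 on the log2 scale. Gbp4 also fell without control-diet air libraries 1 to 3, without 4 to 6, and on the DHA diet without ozone libraries 1 and 2. Irf1 was not called on the control diet without air libraries 4 to 6 (edgeR adjusted p = 0.227), and neither Irf1 nor Ciita was called on the DHA diet without ozone libraries 1 and 2. Whether these genes and the immunoproteasome subunits moved for the same reason was not tested.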

How the data were processed

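RNA was extracted with an RNeasy kit and libraries were made by Genewiz, per the labels' protocols. The authors deposited raw gene counts. The submitters' processing notes name Partek, STAR, HTSeq and mm39 (versions, annotation and strandedness not given in the sources used here). Groups came from the sample titles.

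The deposited counts were fitted with edgeR 4.0.16 (R 4.3.3; TMM scaling, filterByExpr with a minimum count of 10 and total of 15, 1 mean per group, all 24 libraries, 20 residual degrees of freedom, quasi-likelihood F test, Benjamini-Hochberg over 16153 genes, threshold 0.05). The 95% intervals are 1.96 SE either side. DESeq2 1.42.0 and limma 3.58.1 (voom with quality weights) were alternatives. Fitting was tested on simulated data with larger changes than those of most members. How well changes as small as theirs are recovered was not tested. Transcript lengths for levels per kilobase are those of the principal transcripts in GENCODE vM21. Intervals cover the spread between libraries.

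The members, gene lists and classes were chosen with earlier results of these data known. Named were the catalytic subunits, the activators, up to 3 called members per class with the largest fold change, and up to 4 called genes per list with the smallest adjusted p. The main fit did not pair the libraries by replicate number. No 2 libraries of a group were duplicates: the lowest chi-square per degree of freedom was 4.63. Some genes of the lists count in the totals and are not reported here by value.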

Additional observations from a re-analysis of the deposited data

Results flagged for a closer look

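In 9 of 184 sets of 6 libraries (46 genes in 4 groups), 1 library stood far from the other 5 by Dixon's 95% criterion, and chance gives about 1 in 20. In control-diet ozone, library 1 was highest for 3 genes of the regulatory particle. Psmd1 was at 182 CPM there, with 152 to 163 CPM in the others. Psmd8 was at 118 CPM, with 99.1 to 105 CPM in the others. Psmd13 was at 155 CPM, with 134 to 139 CPM in the others.

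In DHA-diet ozone, 2 libraries were low for the genes named here. Over the 43 members other than the immunoproteasome subunits, library 1 had the highest median deviation of that group, 0.25 on the log2 scale. Library 1 had 164 CPM of Psme1, with 186 to 189 CPM in the others. Library 2 had 131 CPM of Psmb1, with 140.04 to 145 CPM in the others, and 99.3 CPM of Psmd8, with 109 to 112 CPM in the others.

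In air, Psma7 was highest in DHA-diet library 1 at 160.4 CPM, with 146 to 151 CPM in the others. Psmd6 was lowest in DHA-diet library 5 at 55.3 CPM, with 58.3 to 59.9 CPM in the others. Psmd3 was highest in control-diet library 5 at 121 CPM, with 108 to 112 CPM in the others.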

How the results depend on the processing

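No called result changed sign under the alternatives run. The count of members that rose after ozone on the control diet (26) was between 18 and 28 under the other scalings, filters and tools and the 2 groups alone (18 with library totals), 16 at an adjusted p under 0.01, and 8 without control-diet air libraries 1 to 3. On the DHA diet (29) it was between 28 and 31, and 24 at an adjusted p under 0.01. At that stricter threshold, 705 of 16153 genes rose on the control diet and 1191 on the DHA diet. The 1 lower member on the control diet, Psmb9, became 0 at an adjusted p under 0.01, 0 with the replicate block (adjusted p = 0.0639) and 0 without control-diet air libraries 4 to 6, and the count ran from 0 to 1 with 1 library left out. DHA against control diet in air gave 3 higher members without control-diet air libraries 4 to 6 (655 of 16453 genes rose in that fit), and 0 under the other settings. With the replicate block, 25 and 29 members rose. Same-numbered libraries of different groups did not deviate together (correlations -0.210 to 0.0966). The sources used here do not say what the numbers stand for, and within control-diet air libraries 1 to 3 differed from 4 to 6. Per kilobase, the immunoproteasome share was 37.9% in control-diet air, 33.1% after ozone, 34.9% in DHA-diet air and 30.7% after ozone. Psmg2, Psmg3 and Psmg4 had the fewest counts among the members, and the part of depth in their spread was not tested.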
